A study of Homo sapiens with 8 samples.

Results

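Amino acid transporters are membrane proteins of the solute carrier (SLC) families that carry amino acids into and out of the cell. The 10 genes described here were chosen by symbol, with earlier results of these data known. The named list was SLC7A11, SLC7A5, SLC3A2, SLC1A5, SLC1A4, SLC38A1, SLC38A2, SLC7A1, SLC6A9 and SLC43A1. They were found among the 57500 genes of the count table by Ensembl identifier and GENCODE symbol, and 10 of 10 were counted and passed the filter on low counts. HEK293T cells come from human embryonic kidney and express SV40 large T antigen. They were given 100 µM DZNep or its vehicle (Control) for 48 h, and RNAseq was performed on 4 libraries per group, numbered 1 to 4 in each. DZNep, an analog of adenosine, blocks AHCY, the enzyme that splits S-adenosyl-l-homocysteine. The libraries come from 1 cell line at 1 dose and 1 time point, and the sample labels name DMEM as the medium whereas the methods of the study name RPMI.

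As background, a cell takes up amino acids through several systems at once. SLC7A5 and SLC7A11 are light chains that reach the plasma membrane bound to the heavy chain SLC3A2, the former (LAT1) exchanging large neutral amino acids and the latter (xCT) exchanging glutamate for cystine. SLC1A5 (ASCT2) and SLC1A4 (ASCT1) exchange small neutral amino acids such as serine and alanine, SLC1A5 also glutamine, SLC38A1 and SLC38A2 load glutamine and other neutral amino acids with sodium, SLC7A1 carries arginine and lysine, SLC6A9 carries glycine, and SLC43A1 (LAT3) lets branched-chain amino acids pass without an ion. Many of these genes are textbook targets of ATF4, the transcription factor that is translated when amino acids run short, and SLC7A11 is also a target of NRF2, the regulator of the oxidative stress response.

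Of the 10 members, 9 had starts in the RefSeq promoter table (GRCh38.p14), with 16 starts in all, while SLC7A11 had none there. Each window ran from 250 bases before to 50 bases after a start. The C/EBP-ATF type motif TGATGNAA, in which ATF4 dimers can bind, was searched on both strands. It was found in 5 of the 16 windows, each of another member, against 3.62% of all 35116 windows. The windows below show each match with 6 flanking bases where the window allows, in the direction of the gene, with the motif in capitals. They are shown because ATF4 targets are described below, and a match is a description and not a binding site.
SLC1A4: tcccgtTTGCATCAtctcca
SLC1A5: agtggcTGATGCAAgctgtc
SLC7A1: cactgcTGATGAAAcctggc
SLC38A1: cccgaaTGATGAAAagggat
SLC3A2: gactccTTACATCAgctcc

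The match of SLC1A4 spans the bases from -7 to 1 around its start (chr2:64989386-64989405, plus strand), with the start counted as base 1, and reads as the reverse complement of TGATGCAA. That of SLC1A5 lies from -97 to -90 of an internal start (chr19:46784898-46784917, minus strand), that of SLC7A1 from 8 to 15 (chr13:29595668-29595687, minus strand), that of SLC38A1 from -4 to 4 (chr12:46266507-46266526, minus strand) and that of SLC3A2 from 38 to 45 (chr11:62881730-62881748, plus strand). For SLC1A5, SLC1A4, SLC38A1 and SLC3A2, 1 of several starts held the match, in each case the start furthest into the gene. The E-box CACGTG, the palindrome to which MYC and related factors can bind, stood in 3 of the 16 windows, each of another member, against 7.26% of all windows. These were SLC7A5 (from -130 to -125), SLC43A1 (from -112 to -107) and an internal start of SLC1A5 (from -50 to -45). The 250 bases before the starts of SLC7A5 (chr16:87869508-87869757, minus strand) and SLC1A4 (chr2:64989149-64989398, plus strand) are given for the largest decreases found below, with both motifs in capitals. The last letter of the SLC1A4 motif lies at the start itself and outside the stretch.
SLC7A5: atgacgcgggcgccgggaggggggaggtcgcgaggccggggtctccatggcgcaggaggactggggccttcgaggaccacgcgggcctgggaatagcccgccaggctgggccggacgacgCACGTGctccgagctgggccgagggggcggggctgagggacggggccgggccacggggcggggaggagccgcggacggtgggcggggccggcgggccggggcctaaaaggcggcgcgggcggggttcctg
SLC1A4: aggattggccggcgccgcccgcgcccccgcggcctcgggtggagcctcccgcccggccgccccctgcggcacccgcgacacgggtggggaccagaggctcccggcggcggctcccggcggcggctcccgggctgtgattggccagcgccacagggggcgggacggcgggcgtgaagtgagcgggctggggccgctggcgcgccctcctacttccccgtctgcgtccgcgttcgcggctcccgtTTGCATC

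The libraries held between 25043058 and 44902779 counts, with Control replicate 1 the shallowest. Mitochondrial transcripts made up 3.02% to 13.7% of a Control library and 4.25% to 10.1% of a DZNep library, and in both groups replicate 4 had the highest share, followed by replicate 1. Of 10 genes fixed as markers of kidney lineage and HEK293T cells, 9 passed the filter. Their summed level was 32517 to 57672 normalized counts in the Control and 42709 to 53398 in the DZNep libraries, most of it from KRT18 and VIM. PAX8 was near 0, with at most 2.15 normalized counts in a Control and 6.44 in a DZNep library. Of 7 markers of other cells, 5 passed, with a summed level of 2494 to 4747 and 2572 to 5029 normalized counts, most of it from COL1A1. Of the kidney markers KRT8 rose (361 ± 138 to 2001 ± 401 normalized counts, SD, n = 4 each, log2 fold change (log2FC) 2.44, adjusted p 1.33e-04 in edgeR) and LHX1 fell (log2FC -1.43, adjusted p 0.00593), and of the others the muscle gene DES rose from a low level (6.61 ± 4.65 to 59.2 ± 24.2 normalized counts, SD, n = 4 each, adjusted p 0.00143 in edgeR). CD3E had 0 counts in each Control library and at most 40.5 normalized counts in a DZNep library. The part of other cells in the results was not tested. In bulk RNA, fewer cells that use a gene and less RNA of it per cell cannot be told apart. Values of single genes are normalized counts, that is, counts divided by the size factor of the library in the authors' table.

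Of the 10 transporter transcripts, 3 were lower and 0 were higher with DZNep when an adjusted p under 0.05 and an absolute log2FC over 1 were required (edgeR's quasi-likelihood test, Benjamini-Hochberg adjustment over 19171 genes). Among all genes tested, 13.5% were lower and 10.6% were higher by this rule. The 3 were SLC1A4, SLC7A5 and SLC43A1. At the adjusted p alone, SLC6A9 and SLC7A11 were lower as well, so that 5 of 10 fell, against 21.8% of all genes, and 0 rose, against 19.1%. None of the members was higher at an unadjusted p under 0.05, a rule for which the share of all genes was not computed. By both thresholds, 0 were higher with DESeq2 or limma, which called 2920 and 2160 genes higher in all. The median log2FC was -0.54 over the members and -0.03 over all genes tested. In 5 members all DZNep libraries were lower than all Control libraries, which was so for 19.4% of all genes tested, and in 0 members all were higher, against 19.5%.

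**Figure D1:**
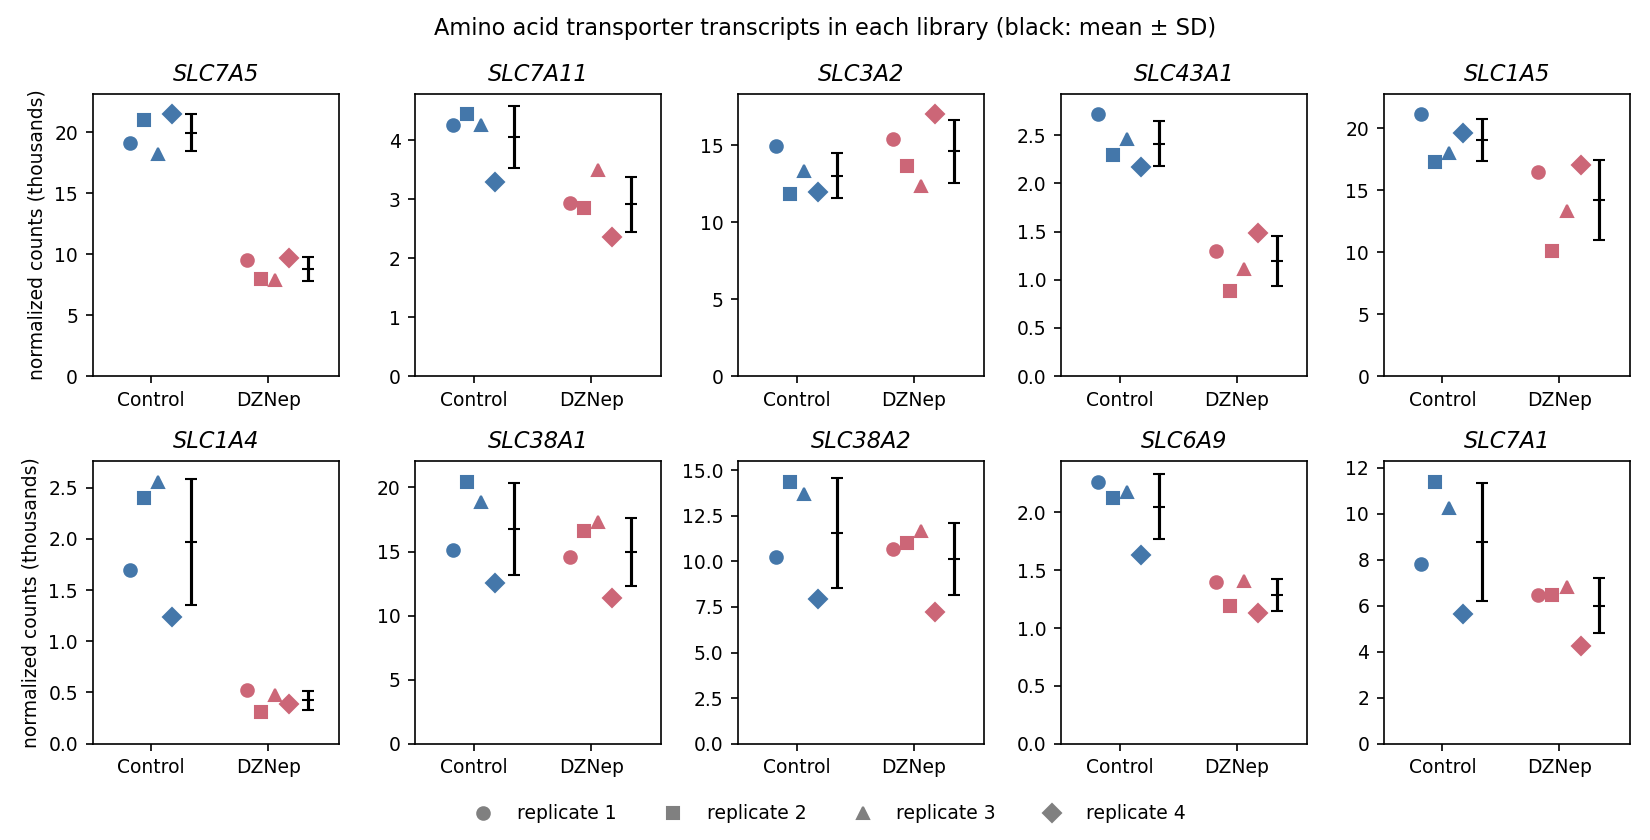
Normalized counts (in kilocounts, on a linear axis from 0) of the 10 transporter transcripts in 4 Control (blue) and 4 DZNep (red) libraries, with a symbol for each replicate number and the mean ± SD in black. SLC7A5, SLC43A1, SLC1A5, SLC1A4 and SLC6A9 do not overlap between the groups, while SLC3A2, SLC38A1, SLC38A2, SLC7A1 and SLC7A11 do.

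The heterodimeric exchangers are described first. SLC7A5 (ENSG00000103257, chromosome 16 of GRCh38 from 87830023 to 87869507), the LAT1 light chain, had 19148, 21050, 18252 and 21469 normalized counts in Control replicates 1 to 4 and 9565, 7960, 7928 and 9728 in DZNep replicates 1 to 4. The groups stood far apart, the highest DZNep library being well below the lowest Control library. The means were 19980 ± 1532 and 8795 ± 985 (SD, n = 4 each), which is 2.27-fold lower with DZNep. The log2FC was -1.21 with SE 0.15 and adjusted p = 1.85e-04 from edgeR's quasi-likelihood test. Compared within each replicate number, the DZNep library was lower in 4 of 4 pairs, most so in replicate 2 (log2 ratio -1.40).

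SLC3A2 (ENSG00000168003, chromosome 11 from 62856004 to 62888880), the heavy chain that SLC7A5 and SLC7A11 share, did not pass. It had 14963, 11803, 13336 and 11951 normalized counts in the Control and 15374, 13640, 12332 and 16985 in the DZNep libraries, in the order of the replicate numbers. The groups overlapped, and the difference was smaller than the spread between replicates. Its log2FC was 0.14 with a 95% interval of the fit from -0.22 to 0.49 and adjusted p = 0.525, an interval that leaves out a decrease as large as that of SLC7A5. SLC7A11 (ENSG00000151012, chromosome 4 from 138164097 to 138242349), the cystine and glutamate exchanger, had 4255, 4435, 4249 and 3285 normalized counts in the Control and 2928, 2852, 3496 and 2360 in the DZNep libraries. DZNep replicate 3 lay above Control replicate 4, and in each of the 4 pairs the DZNep library was the lower one. The log2FC was -0.51 (SE 0.16, adjusted p 0.0316), within the fold change threshold. The adjusted p was 0.00119 with the replicate number as a block but did not pass in 6 of 8 fits that left out a library, where it reached 0.0943; only without Control replicate 4 (0.0144) or DZNep replicate 3 (0.0280) did it pass. It also missed the threshold with library sizes alone (0.141) and without a filter on low counts (0.102).

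**Figure D2:**
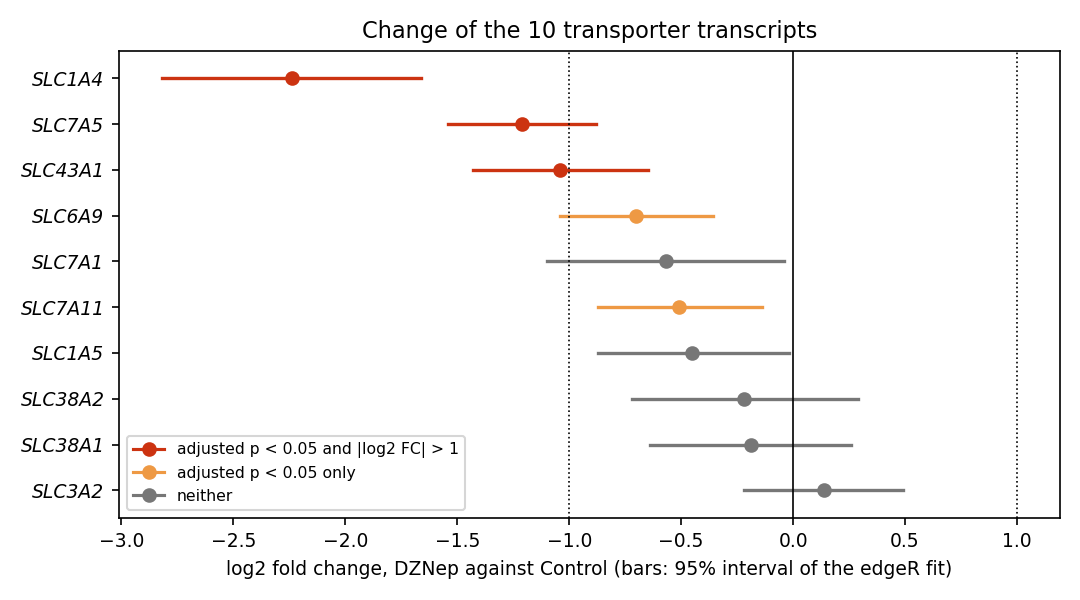
Log2 fold change (x axis, DZNep against Control) of each member with the 95% interval of the edgeR fit, the dotted lines marking a log2FC of -1 and 1. SLC1A4, SLC7A5 and SLC43A1 passed both thresholds, SLC6A9 and SLC7A11 that on the adjusted p, and SLC3A2 is the member with a value above 0.

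The ratio of a light to the heavy chain within a library does not depend on the scaling of libraries. The ratio of SLC7A5 to SLC3A2 counts was 1.28, 1.78, 1.37 and 1.80 in Control replicates 1 to 4 and 0.622, 0.584, 0.643 and 0.573 in DZNep replicates 1 to 4. SLC7A5 thus had more counts than SLC3A2 in 4 of 4 Control libraries and fewer in 4 of 4 DZNep libraries. On the log2 scale the ratio averaged 0.62 ± 0.25 without and -0.73 ± 0.08 with DZNep (SD, n = 4 each), a difference of -1.35 (exact permutation test, two-sided, p = 0.0286, the smallest that 4 against 4 allow, and 0.0571 after adjustment over 4 ratios). The ratio of SLC7A11 to SLC3A2 was -1.68 ± 0.20 and -2.33 ± 0.42 on the log2 scale (exact permutation test, p = 0.0571, adjusted 0.0762, n = 4 each). It was lower in 4 of 4 pairs, by 0.17 to 0.98. Neither ratio passed after adjustment over the 4 ratios. Since SLC7A5 to SLC3A2 already had the smallest possible p, its adjusted value depended only on the other ratios. Without DZNep replicate 3 the adjusted p of both in this test was 0.0381.

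SLC43A1 (ENSG00000149150, chromosome 11 from 57484534 to 57515780) encodes LAT3, which carries some of the substrates of LAT1 without a heavy chain. It had 2716, 2294, 2462 and 2173 normalized counts in the Control and 1303, 882, 1112 and 1482 in the DZNep libraries. All DZNep libraries lay below all Control libraries, with means of 2411 ± 235 and 1195 ± 257 (SD, n = 4 each). The log2FC of -1.04 had SE 0.18 and adjusted p = 0.00110 from edgeR's quasi-likelihood test. It stood close to the fold change threshold and was -0.99 without Control replicate 1, -0.91 without DZNep replicate 2 and -0.98 with library sizes alone, each with an adjusted p still under 0.05.

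The ASC exchangers came next. SLC1A4 (ENSG00000115902, chromosome 2 from 64988477 to 65023865), ASCT1, had the largest change of the 10 members. It had 1694, 2397, 2557 and 1241 normalized counts in Control replicates 1 to 4 and 521, 309, 476 and 389 in DZNep replicates 1 to 4. The spread among the Control libraries was wide, yet the lowest of them was above every DZNep library. The means of 1972 ± 615 and 424 ± 94.1 (SD, n = 4 each) were 4.65-fold apart, with a log2FC of -2.24, SE 0.26 and adjusted p = 1.33e-04 from edgeR's quasi-likelihood test. The log2 ratio within pairs was -2.95 and -2.42 in replicates 2 and 3, in which the Control level was highest, and -1.70 and -1.67 in replicates 1 and 4. SLC1A4 was also the 1 member that passed a test against a log2FC of 1 (glmTreat).

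SLC1A5 (ENSG00000105281, chromosome 19 from 46774883 to 46788594), the glutamine exchanger ASCT2, had 21114, 17298, 18041 and 19630 normalized counts in the Control and 16471, 10083, 13315 and 17041 in the DZNep libraries. The groups did not overlap, but the gap between DZNep replicate 4 and Control replicate 2 was small. The log2FC was -0.45 with SE 0.19 and adjusted p = 0.0866, which did not pass; blocking on the replicate number gave -0.47 and 0.00389. The log2 ratio of SLC1A5 to SLC1A4 averaged 3.32 ± 0.58 without and 5.06 ± 0.27 with DZNep (SD, n = 4 each; exact permutation test, two-sided, p = 0.0286, adjusted 0.0571). It was higher in 4 of 4 pairs. The test did not pass after adjustment, which at the smallest possible p depended only on the other ratios. SLC1A5 had 7.05 to 15.8 times the counts of SLC1A4 in a Control library and 28.0 to 43.8 times in a DZNep library.

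The sodium-coupled transporters SLC38A1 (ENSG00000111371, chromosome 12 from 46183063 to 46270017) and SLC38A2 (ENSG00000134294, chromosome 12 from 46358188 to 46372773) did not pass. SLC38A1 had 15138, 20433, 18851 and 12517 normalized counts in the Control and 14579, 16599, 17275 and 11357 in the DZNep libraries. SLC38A2 had 10218, 14356, 13676 and 7943 in the Control and 10653, 10986, 11643 and 7198 in the DZNep libraries. For both genes, the replicates of 1 group differed more than the groups did. Their log2FCs were -0.19 (95% interval from -0.64 to 0.26, adjusted p 0.492) and -0.22 (from -0.72 to 0.29, adjusted p 0.479). The log2 ratio of SLC38A2 to SLC38A1 averaged -0.55 ± 0.08 without and -0.57 ± 0.09 with DZNep (SD, n = 4 each; exact permutation test, two-sided, p = 0.771), so that a difference between the groups was not detected.

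**Figure D3:**
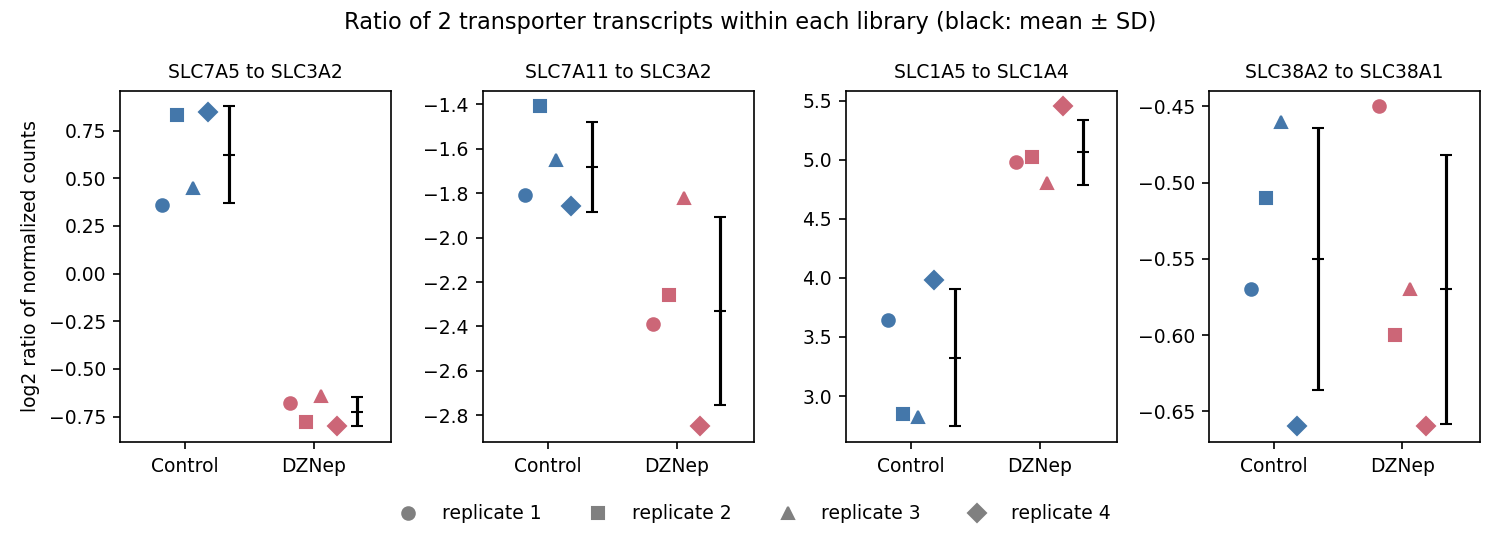
Log2 ratio of the normalized counts of 2 transporters within each library, for 4 Control (blue) and 4 DZNep (red) libraries, with a symbol for each replicate number and the mean ± SD in black (axes do not start at 0). The ratios of SLC7A5 to SLC3A2 and of SLC1A5 to SLC1A4 do not overlap between the groups, and that of SLC38A2 to SLC38A1 lies between -0.66 and -0.45 in all 8 libraries.

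SLC7A1 (ENSG00000139514, chromosome 13 from 29509414 to 29595688), the cationic amino acid transporter CAT1, had 7800, 11391, 10272 and 5660 normalized counts in the Control and 6480, 6479, 6832 and 4252 in the DZNep libraries. The groups overlapped through Control replicate 4, although each DZNep library was below the Control library of its number. The log2FC of -0.57 had SE 0.24 and adjusted p = 0.0813, while blocking on the replicate number gave -0.55 and 0.00122. Without Control replicate 4 its adjusted p was 0.0176. SLC6A9 (ENSG00000196517, chromosome 1 from 43991500 to 44031467), the glycine transporter GlyT1, had 2263, 2121, 2173 and 1634 normalized counts in the Control and 1399, 1194, 1409 and 1134 in the DZNep libraries. The groups did not overlap, and the log2FC of -0.70 had SE 0.15 and adjusted p = 0.00465 from edgeR's quasi-likelihood test, short of the fold change threshold. Its adjusted p was under 0.05 in 8 of 8 fits that left out a library.

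The members differed in how they varied by replicate number. SLC38A1, SLC38A2, SLC7A1, SLC7A11 and SLC6A9 had their lowest level in replicate 4 of both groups, and in the Control the first 3 of them had the order replicate 2, 3, 1 and 4 from high to low. SLC7A5 had no such order, since its Control replicate 4 was the highest and its DZNep replicate 4 also the highest. The share of mitochondrial transcripts was highest in replicates 4 and 1, as given above, and its part in these levels was not tested. In the fit with the replicate block, 3 members were lower by both thresholds, where 14.3% of all genes were, and 7 were lower at the adjusted p alone, where 30.2% of all genes were. None was higher in that fit, where 11.7% of all genes were by both thresholds and 28.8% at the adjusted p alone. The 2 members added at the adjusted p alone were SLC1A5 and SLC7A1. SLC3A2, SLC38A1 and SLC38A2 did not pass with the block either, with adjusted ps of 0.372, 0.176 and 0.151.

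**Figure D4:**
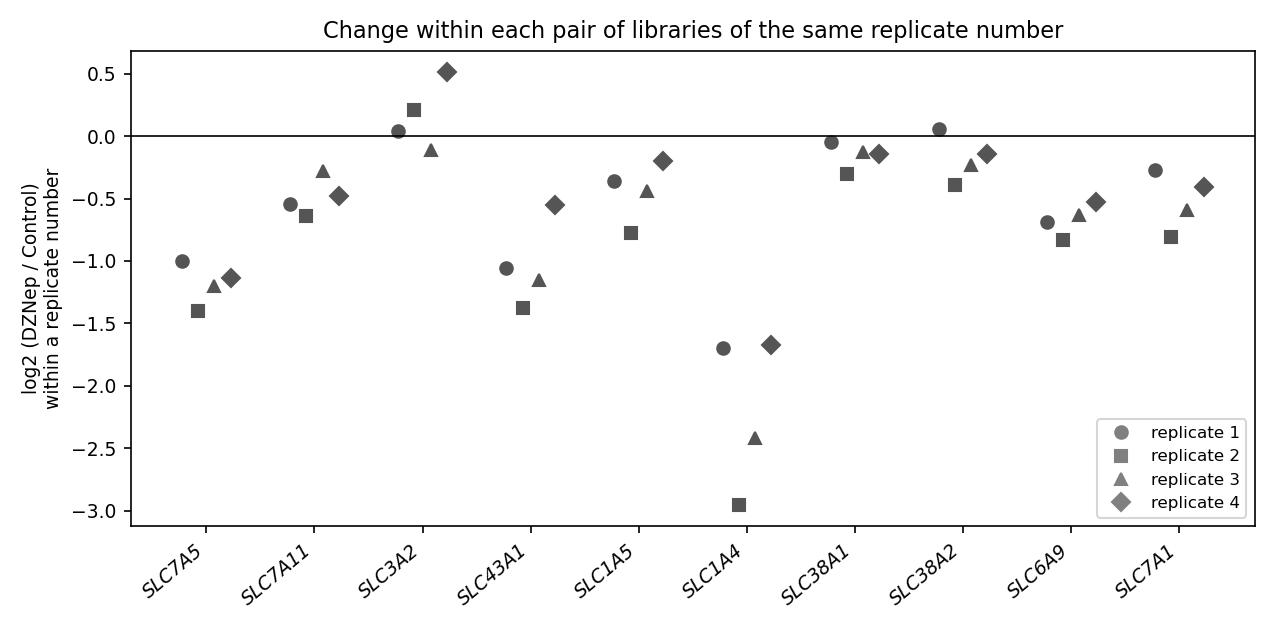
Log2 ratio of DZNep to Control (y axis) within each of the 4 pairs of libraries that share a replicate number, for each member. The 4 pairs were below 0 for 8 members, 1 pair was above 0 for SLC38A2 (0.06), and SLC3A2 went both ways, from -0.11 to 0.51.

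To compare levels between genes, the normalized counts were divided by the length of all annotated exons of a gene. In the Control, SLC1A5 was first with 5709 ± 511 normalized counts per kb and SLC7A5 second with 4194 ± 322 (SD, n = 4 each). SLC3A2, SLC38A2 and SLC38A1 followed with 2036 ± 230, 1774 ± 462 and 1671 ± 358, and these 3 did not differ beyond their spread. SLC7A1 had 1142 ± 334, which overlapped with SLC38A1 over the libraries. SLC43A1 had 684 ± 66.7, with its highest library above the lowest of SLC7A1. Within each Control library, however, SLC38A1 was above SLC7A1 and SLC7A1 above SLC43A1. SLC7A11, SLC6A9 and SLC1A4 came last with 421 ± 54.0, 390 ± 53.7 and 284 ± 88.6 normalized counts per kb. Their ranges overlapped across libraries, but within each Control library they kept this order.

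With DZNep, SLC7A5 stood behind SLC3A2, at 1846 ± 207 and 2281 ± 317 normalized counts per kb. Their ranges overlapped across libraries, but SLC7A5 was the lower one within each DZNep library. The other 8 members kept their rank on this length. This order rests on the length used. The exons of SLC3A2 cover 6392 bases in the annotation, whereas its canonical transcript has 1885 bases, and on the canonical length it was first in both groups, with 6903 ± 781 and 7736 ± 1076 (SD, n = 4 each). On that length SLC7A5 went from place 3 to 4 behind SLC38A2, and SLC1A4 from place 9 to 10 behind SLC7A11. The 10 members summed to 18304 ± 944 normalized counts per kb without and 13173 ± 1039 with DZNep. Of the level of all 53 listed transporters per length, the members held 84.5% ± 1.25 and 83.0% ± 1.70 (SD, n = 4 each). Within that total, SLC7A5 took 19.4% ± 2.27 without and 11.6% ± 0.901 with DZNep, and SLC1A5 took 26.5% ± 3.44 and 26.7% ± 4.85. SLC3A2 took 9.41% ± 1.11 and 14.4% ± 1.77. These sums and shares use the length of all annotated exons and rest on it as the order does.

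A further 43 amino acid transporter genes were listed. They came from the families of the members and from others (SLC15A4, SLC16A10, SLC36A1 to SLC36A4, SLC66A1 and CTNS). Of the 43, 27 passed the filter on low counts, which is not a property of the whole list. Of these, 8 were lower and 3 were higher by both thresholds (13.5% and 10.6% of all genes tested), and 11 were lower and 7 higher at the adjusted p alone (21.8% and 19.1%). For the higher genes these shares are close to those over all genes. The median log2FC was -0.18. With the replicate block 8 were lower and 4 higher by both thresholds, against 14.3% and 11.7% of all genes. At the adjusted p alone, the block gave 12 lower and 8 higher, against 30.2% and 28.8%. Without Control replicate 4, 5 were higher. The largest decreases of genes whose average log2 CPM reached 1 were those of SLC38A10 (-1.82), the glutamate transporters SLC1A3 (-1.75) and SLC1A1 (-1.52), and the taurine transporter SLC6A6 (-1.48). SLC1A3 averaged 1701 ± 178 normalized counts without and 515 ± 60.8 with DZNep (SD, n = 4 each; adjusted p 2.31e-05). SLC38A10 went from 2960 ± 226 to 853 ± 48.9 (SD, n = 4 each; adjusted p 1.09e-05).

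The 3 increases were those of SLC7A8, SLC43A2 and SLC38A4. SLC7A8 (LAT2), a further light chain partner of SLC3A2, rose 2.47-fold, from 712 ± 122 to 1758 ± 134 (SD, n = 4 each), a log2FC of 1.27 with adjusted p = 1.78e-04 from edgeR's quasi-likelihood test. Its 4 Control libraries had 594, 834, 623 and 799 and its 4 DZNep libraries 1588, 1909, 1738 and 1797 normalized counts, without overlap. SLC43A2 (LAT4), a relative of SLC43A1, rose from 273 ± 29.3 to 615 ± 82.8 (SD, n = 4 each), with a log2FC of 1.15 and adjusted p = 3.11e-04. SLC38A4, named after its values were seen since its level was low, rose from 17.0 ± 7.38 to 44.8 ± 9.45 (SD, n = 4 each; log2FC 1.35, adjusted p 0.0108 in edgeR). SLC7A5 still had more counts than SLC7A8, and SLC43A1 more than SLC43A2, in every library of both groups. Of the other light chains that bind SLC3A2, chosen after their values were seen, SLC7A7 had a log2FC of 0.91 (adjusted p 0.00822), SLC7A6 of -0.06 (0.891) and SLC7A10 of 1.05 (0.0735, or 0.0287 with the replicate block). Of the cationic transporters related to SLC7A1, chosen in the same way, SLC7A2 had -1.41 (adjusted p 0.0105) and SLC7A3 0.01 (0.984).

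**Figure D5:**
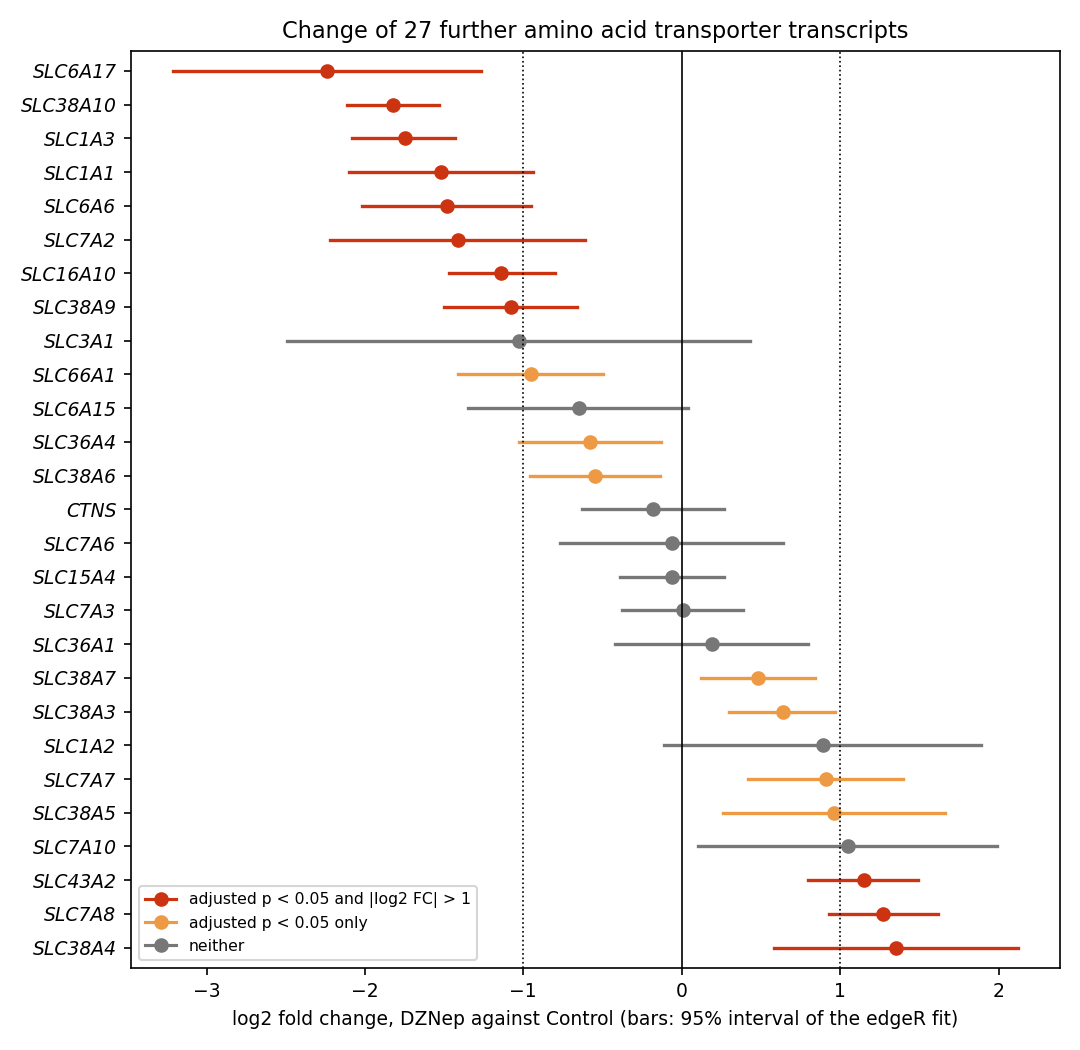
Log2 fold change (x axis, DZNep against Control) with the 95% interval of the edgeR fit for the 27 further amino acid transporters that passed the filter on low counts. By both thresholds 8 were lower and 3 were higher (red), and the dotted lines mark a log2FC of -1 and 1.

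The list of ATF4 pathway genes, which holds ATF4, its partners and well-known targets, had 40 genes, all of which passed the filter. Of these, 7 were lower and 1 was higher by both thresholds (13.5% and 10.6% of all genes tested), and 18 were lower and 1 higher at the adjusted p alone (21.8% and 19.1% of all genes tested). With the replicate block, 25 were lower and 3 higher at the adjusted p alone, against 30.2% and 28.8%. The median log2FC was -0.56. The transcript of ATF4 itself did not pass, with 38179 ± 10723 normalized counts without and 38030 ± 7101 with DZNep (SD, n = 4 each; log2FC -0.03, adjusted p 0.920). The largest decreases were those of the mitochondrial folate enzyme ALDH1L2 (-2.84), of PCK2, the mitochondrial PEP carboxykinase (-2.80), of DDIT3, which encodes the stress factor CHOP (-2.61), and of the pseudokinase TRIB3 (-1.76). DDIT3 fell from 1112 ± 422 to 185 ± 41.1 (SD, n = 4 each; adjusted p 1.30e-04). ASNS, asparagine synthetase, had a log2FC of -0.57 that did not pass (adjusted p 0.118, or 6.02e-04 with the replicate block). The 1 higher gene was DDIT4, an inhibitor of mTORC1 signaling, which rose from 10657 ± 2036 to 22604 ± 3086 (SD, n = 4 each; log2FC 1.06, adjusted p 0.00134). Its call was lost without Control replicate 2, Control replicate 4 or DZNep replicate 3, in which fits 0 genes of the list were higher by both thresholds.

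Of 13 genes of the eIF2alpha kinases, the eIF2B exchange factor and their regulators, 1 was higher and 0 were lower by both thresholds. Among all genes tested, 10.6% were higher and 13.5% lower by this rule. At the adjusted p alone, 1 was higher and 2 were lower, against 19.1% and 21.8% of all genes. With the replicate block, the adjusted p alone gave 5 higher and 3 lower, against 28.8% and 30.2%. EIF2B2, an eIF2B subunit, rose from 1847 ± 302 to 4118 ± 353 (SD, n = 4 each; log2FC 1.13, adjusted p 3.58e-04). EIF2AK4, which encodes GCN2, the kinase that senses uncharged tRNA, fell by 0.62 on the log2 scale (adjusted p 0.00756), short of the fold change threshold. Without Control replicate 2, 2 genes of this list were higher.

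Of 35 genes for amino acid sensing by mTORC1, the growth kinase complex switched on at the lysosome, 2 were lower and 0 higher by both thresholds. Among all genes tested, 13.5% were lower and 10.6% higher by this rule. At the adjusted p alone, 6 were lower and 3 higher, against 21.8% and 19.1% of all genes. At an unadjusted p under 0.05, 7 were lower and 7 higher, a rule for which the share of all genes was not computed. With the replicate block, 13 were higher and 9 lower at the adjusted p alone, where 28.8% and 30.2% of all genes were. In that fit CASTOR2, an arginine sensor subunit named after its values were seen, was higher by both thresholds (log2FC 1.53, adjusted p 4.94e-05 in edgeR). Without the block, CASTOR2 had 1.34 and 0.0730. The 2 lower genes were KICS2, a part of the KICSTOR scaffold (log2FC -1.64, adjusted p 6.33e-04), and RPTOR, the Raptor subunit of mTORC1 (-1.02, adjusted p 6.07e-04). Only 1 was lower without Control replicate 2, DZNep replicate 1 or DZNep replicate 4, and without Control replicate 2 or DZNep replicate 4, 1 was higher.

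Of 23 NRF2 pathway genes, 20 passed the filter and 0 were called in either direction by both thresholds in edgeR. Among all genes tested, 10.6% were higher and 13.5% lower by this rule. At an unadjusted p under 0.05 there were 4 higher and 6 lower, a rule for which the share of all genes was not computed. DESeq2, run on the counts without this filter, called 2 higher by both thresholds, where it called 2920 genes higher in all. edgeR without the filter also called 2 of the list higher, and 2965 genes in all. Leaving out 1 library gave up to 3 higher (without Control replicate 4), with 2 without Control replicate 1 or 3, 1 without Control replicate 2 or DZNep replicate 1, 3 or 4, and 1 lower without Control replicate 3. NFE2L2, which encodes NRF2, did not pass (log2FC 0.02, adjusted p 0.954). Of the 3 genes that did not pass the filter, AKR1B10 had 0 counts in each Control library and 9.24 ± 2.49 normalized counts with DZNep, AKR1C2 had 1.21 ± 1.41 and 15.7 ± 7.31, and AKR1C3 had 2.45 ± 2.35 and 7.51 ± 4.79 (SD, n = 4 each), at too low a level for the test. At the adjusted p alone, 19.1% of all genes tested were higher and 21.8% lower, or 28.8% and 30.2% with the replicate block. Of the NRF2 list, the block gave 7 higher and 6 lower by this rule. Without the block, KEAP1, HMOX1, PGD and FTL were higher and GCLM, TKT, ME1 and PIR lower. These 8 were picked for naming with their values known. KEAP1 is the repressor of NRF2 and went from 2465 ± 192 to 4701 ± 303 normalized counts, and GCLM, a subunit of the ligase that uses the cysteine supplied by SLC7A11, from 2507 ± 168 to 1297 ± 77.7 (SD, n = 4 each).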

How the data were processed

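RNAseq of 4 Control and 4 DZNep libraries of HEK293T cells was used, grouped by treatment and replicate number as the labels give them. After trimming (Trimmomatic 0.36) and alignment to GRCh38 (STAR 2.5.2b), the authors counted unique exonic reads per gene with featureCounts (Subread 1.5.2) and deposited counts of 57500 genes. The deposited normalized counts (a signal) of 19118 genes were checked to equal the counts over a size factor that is shared within a library. The annotation release and strandedness are not given in the sources used here, so values of overlapping or antisense genes are uncertain. Symbols (56410 of 57500 identifiers), positions and lengths came from GENCODE on GRCh38.

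Counts of 19171 genes that passed filterByExpr were fitted with edgeR 4.0.16 in R 4.3.3 (TMM, quasi-likelihood test, Benjamini-Hochberg). The study used the Wald test of DESeq2, which was an alternative here (DESeq2 1.42.0), as was limma 3.58.1. Ratios used a pseudocount of 0.5. Intervals cover the spread between these libraries, and replicates of a group differed by more than counting noise (chi-square of at least 26.9 per degree of freedom). The main fit and the permutation tests did not use the replicate number, which entered only in alternatives. Between same-numbered libraries, the correlation of the deviations from their group means was 0.14, 0.49, 0.43 and 0.67. By a rule of over 0.1 in every pair, the number was taken to pair them. Control replicate 1, however, correlated more with DZNep replicate 4 (0.53), and 3 of 4 Control libraries correlated best with their own number. The labels do not say that replicates were separate cultures, whereas the study calls them biological.

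The members, gene lists and tests were chosen with earlier results of these data known. All members were named, and of each other list up to 4 called genes in the more frequent direction and 2 in the other, by size, if their average log2 CPM reached 1, besides ATF4, DDIT3, ASNS, EIF2AK4 and NFE2L2. Beyond this rule, SLC7A2, SLC7A3, SLC7A6, SLC7A7, SLC7A10, SLC38A4, CASTOR2, the markers and NRF2 pathway genes other than NFE2L2 were named after their values were seen. The level per canonical transcript length and the log2 ratios within pairs were added after seeing the data. Lists were described by counts and not tested.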

Additional observations from a re-analysis of the deposited data

Results flagged for a closer look

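In 20 groups of 4 libraries (10 members by 2 treatments), 2 had a library whose distance to the nearest other library was an unusually large part of the range of its group, where chance gives about 1 in 20 groups. SLC7A11 had 3285 normalized counts in Control replicate 4, the lowest of that group, while the other 3 Control libraries lay between 4249 and 4435. SLC7A1 had 4252 normalized counts in DZNep replicate 4, where the other 3 DZNep libraries lay between 6479 and 6832. Both were libraries of replicate number 4, which had the highest share of mitochondrial transcripts in its group, and the part of this in the levels was not tested.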

How the results depend on the processing

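The direction of each of the 10 members was the same in the alternatives run for it, and 163 of 170 values kept their side of the thresholds, with SLC7A5, SLC43A1, SLC7A11 and SLC6A9 as the exceptions. SLC7A5 (adjusted p-value 0.187) and SLC43A1 (0.782) did not pass glmTreat against a log2 fold change of 1. With each library left out, between 2 and 3 members were lower and 0 were higher. Against a log2 fold change of 1, glmTreat called 942 genes higher and 1066 lower in all, of the members 1 lower, of the other transporters 0 higher and 3 lower, of the ATF4 list 0 higher, of the eIF2alpha list 0 higher and of the mTORC1 list 1 lower. The adjusted p-value alone gave 3656 genes higher and 4171 lower, 5 members lower, 7 other transporters higher, 18 ATF4 genes lower, 2 eIF2alpha genes lower, 3 mTORC1 genes higher and 6 lower, and 4 NRF2 genes higher and 4 lower. At least 10 reads in every library left 1141 genes higher and 1 mTORC1 gene lower. Library sizes alone gave 5 other transporters higher, 1 mTORC1 gene higher and 1 lower, and 1 NRF2 gene higher. Without a filter, 1 mTORC1 gene was higher and 1 lower, and 2 NRF2 genes were higher. DESeq2, also run without that filter, gave the same 3 counts (1, 1 and 2). Median-ratio factors gave 1 mTORC1 gene lower, and limma 1 higher. The replicate block gave 1 mTORC1 gene higher and otherwise moved no count of calls by both thresholds by over 1.5 times. Its larger effect on counts at the adjusted p alone is given with each list. Over the fits without 1 library, the other transporters had 3 to 5 higher, the ATF4 list 0 to 1 higher and 5 to 9 lower, the eIF2alpha list 1 to 2 higher, the mTORC1 list 0 to 1 higher and 1 to 3 lower, and the NRF2 list 0 to 3 higher and 0 to 1 lower. The log2 ratios differed between the groups by -1.44 to -1.27 (SLC7A5 to SLC3A2), -0.81 to -0.47 (SLC7A11 to SLC3A2), 1.57 to 1.96 (SLC1A5 to SLC1A4) and -0.06 to 0.01 (SLC38A2 to SLC38A1, which reversed without Control replicate 3 or DZNep replicate 4). With sign flips within pairs as the replicate block for these ratios, the exact p-values were 0.125, 0.125, 0.125 and 0.875, the first being the smallest that 4 pairs allow. The cause of these shifts was not tested, apart from the stricter or looser rule itself. At these depths the members had over 300 normalized counts in every library, so that the spread between replicates and not counting error limits the comparisons.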

Other observations

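For each member, the genes with the most similar profile were found by the root mean square difference of log2 CPM over the 8 libraries, each gene centred on its own mean, among the 13624 genes whose average log2 CPM reached 1. The profile of SLC1A4 was nearest to that of ACY1, an aminoacylase that frees amino acids from their acetylated form, with a difference of 0.126 and a log2 fold change of -2.14 for ACY1. SLC7A5 was nearest to CLNS1A (0.078). SLC1A5 was nearest to DTD1, a deacylase of mischarged tRNA (0.091), followed by PSAT1, an enzyme of serine synthesis (0.093). SLC3A2 was nearest to MANBAL (0.048), SLC38A1 to NPC1, a lysosomal cholesterol transporter (0.044), SLC38A2 to TLCD4 (0.061), SLC7A1 to GGA3 (0.079) and SLC6A9 to LONRF1 (0.069). SLC7A11 was nearest to BTG2, an antiproliferative gene (0.061), and SLC43A1 to ETFBKMT, a lysine methyltransferase (0.077). These are descriptions of profiles over 8 libraries and carry no test.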
